A study of Drosophila melanogaster with 4 samples.

Results

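The small RNAs bound to Ago2 were compared with those bound to Ago1 in whole male flies at 30 d of age, for each distinct sequence. Members were the 519 sequences with a mean of at least 10 reads per 1000000 listed reads (RPM) over both 30 d libraries, of 5813 distinct sequences that either library listed. All 519 were listed in both libraries and took 99.7% of the Ago2 reads and 99.6% of the Ago1 reads. All flies carried FLAG-HA-Ago2, an Ago2 with a FLAG and HA tag, and were raised at 25 °C. The first 30 d library held RNA pulled down with anti-FLAG M2 beads, and is called the Ago2 library. The second was made with an antibody to Ago1 (ab5070) from flies of that same genotype, and is called the Ago1 library. A matching pair was made from flies of 3 d. Each of the 4 groups had 1 library, so no difference has a replicate check, no p-value is given, and the protein cannot be told apart from the means of pulling it down. Libraries of unbound RNA or of a mock pull-down were not analysed here.

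The 30 d lists held 34554191 reads with Ago2 and 26451651 reads with Ago1, and those of 3 d held 13491805 and 26636441. Depth therefore sets narrow counting intervals, which do not cover the spread between flies or preparations. Ratios compare shares of listed reads and say nothing of how much RNA either protein held. A ratio is given as log2 of Ago2 over Ago1 after adding 1 RPM to both, which pulls the ratios of rare sequences towards 0. Sequences at least 2-fold apart are called higher or lower.

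A miRNA is cut from a hairpin as a duplex, from which an Argonaute keeps one strand, the guide, and drops the other, the passenger. In flies Ago1 carries most guides, and strands that begin with U are known to be favoured there, while Ago2 carries siRNAs and a set of miRNA strands that often begin with C. The enzyme Hen1 methylates the 3′ ends of RNA in Ago2, which protects them, and the exonuclease Nibbler shortens the 3′ ends of some miRNAs in Ago1. The first bases decide which targets are found, because bases 2 to 8, the seed, pair with the mRNA.

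Sequences that overlap exactly were grouped into arms, each taken as a strand of a hairpin with its end variants, and members fell into 127 arms. Of these arms 100, with 458 members, carry names recalled as background knowledge or given by pairing with a named strand, since the deposited lists hold no names. A form is given by its start, counted from the 5′ end of the arm's most abundant sequence at 30 d (start 0, with negative values upstream), and by its length. The sequences below are those in which Ago2 and Ago1 differed by start. They are written as in the deposited lists, with T for U and with the seed in capitals, so that the change of seed with each start can be seen.
miR-956-3p, start -2, 23 nt: gTTTCGAGaccactctaatccat
miR-956-3p, start -1, 23 nt: tTTCGAGAccactctaatccatt
miR-956-3p, start 0, 22 nt: tTCGAGACcactctaatccatt
miR-10-5p, start -1, 22 nt: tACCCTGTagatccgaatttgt
miR-10-5p, start 0, 22 nt: aCCCTGTAgatccgaatttgtt
miR-10-5p, start 1, 22 nt: cCCTGTAGatccgaatttgttt
miR-210-3p, start 0, 21 nt: cTTGTGCGtgtgacagcggct
miR-210-3p, start 1, 20 nt: tTGTGCGTgtgacagcggct
miR-31b-5p, start -2, 23 nt: tTTGGCAAgatgtcggaatagct
miR-31b-5p, start 0, 21 nt: tGGCAAGAtgtcggaatagct
miR-993-5p, start -1, 24 nt: cTACCCTGtagttccgggcttttg
miR-993-5p, start 0, 22 nt: tACCCTGTagttccgggctttt
miR-305-3p, start -1, 22 nt: cCGGCACAtgttgaagtacact
miR-305-3p, start 0, 22 nt: cGGCACATgttgaagtacactc
miR-375-3p, start 0, 21 nt: tTTGTTCGtttggcttaagtt
miR-375-3p, start 1, 21 nt: tTGTTCGTttggcttaagtta
miR-959-3p, start 0, 21 nt: cTTAGTACtcgggttgataaa
miR-1-3p, start -2, 22 nt: tGGAATGTaaagaagtatggag
miR-1-3p, start 0, 20 nt: gAATGTAAagaagtatggag

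A second set differed by 3′ end while the start, and so the seed in capitals, stayed the same.
miR-263a-5p, start 0, 19 nt: aATGGCACtggaagaattc
miR-263a-5p, start 0, 21 nt: aATGGCACtggaagaattcac
miR-263a-5p, start 0, 24 nt: aATGGCACtggaagaattcacggg
miR-276a/b-5p, start 0, 17 nt: aGCGAGGTatagagttc
miR-276a/b-5p, start 0, 22 nt: aGCGAGGTatagagttcctacg
miR-125-5p, start 0, 21 nt: tCCCTGAGaccctaacttgtg
miR-125-5p, start 0, 24 nt: tCCCTGAGaccctaacttgtgact
miR-252-5p, start 0, 19 nt: cTAAGTACtagtgccgcag
miR-252-5p, start 0, 22 nt: cTAAGTACtagtgccgcaggag
miR-277-3p, start 0, 19 nt: tAAATGCActatctggtac
miR-277-3p, start 0, 22 nt: tAAATGCActatctggtacgac
miR-34-5p, start 0, 18 nt: tGGCAGTGtggttagctg
miR-34-5p, start 0, 21 nt: tGGCAGTGtggttagctggtt
miR-34-5p, start 0, 24 nt: tGGCAGTGtggttagctggttgtg
miR-305-3p, start 0, 18 nt: cGGCACATgttgaagtac
miR-10-5p, start 0, 26 nt: aCCCTGTAgatccgaatttgttttat

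The last set shows both strands of hairpins whose passenger, given first, led in the Ago2 library and whose guide led in the Ago1 library.
bantam-5p, start 0, 23 nt: cCGGTTTTcgatttggtttgact
bantam-3p, start 0, 23 nt: tGAGATCAttttgaaagctgatt
miR-275-5p, start 0, 22 nt: cGCGCTAAtcagtgaccggggc
miR-275-3p, start 0, 22 nt: tCAGGTACctgaagtagcgcgc
miR-981-5p, start 0, 21 nt: cGGGTTTCgttagcagcgggc
miR-981-3p, start 0, 22 nt: tTCGTTGTcgacgaaacctgca

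Of the 519 sequences, 150 were at least 2-fold higher with Ago2 (28.9%) and 297 were at least 2-fold lower (57.2%). Their median log2 ratio was -1.94, and single values ran between -7.47 and 8.31. A single sequence, the 24 nt form of miR-263a-5p, weighed on this scale with 476500 RPM in the Ago2 library, against 23016 RPM in the Ago1 library. Scaling by TMM factors, by the median of ratios or by totals without the 5 most abundant arms raised the median by 0.70 to 0.84. Under these scales no called sequence changed sign, and differences between forms of an arm keep their size apart from the effect of the added RPM.

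**Figure D1:**
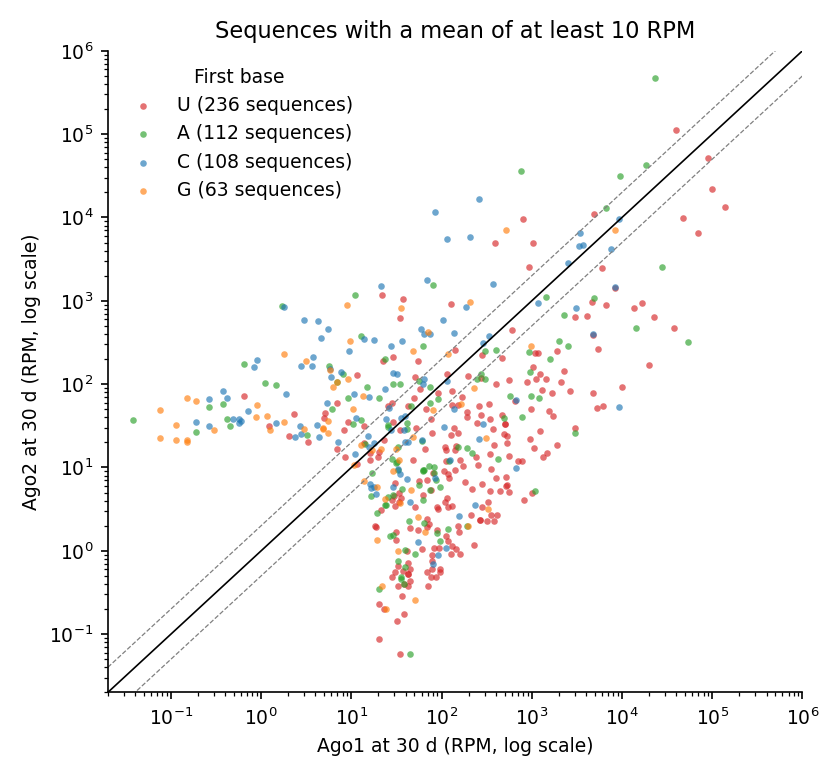
Each point is 1 of the 519 sequences, with its RPM in the Ago1 library at 30 d on the horizontal axis and in the Ago2 library at 30 d on the vertical axis, both on log scales, and its colour gives the first base. The solid line marks equal RPM and the dashed lines 2-fold differences. Sequences that begin with U lie mostly below the lines, while more of those that begin with C or G lie above them than below.

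The sequence furthest towards Ago2 was the 17 nt form of the 5′ strand that miR-276a and miR-276b share. It had 857 RPM with Ago2, against 1.70 RPM with Ago1, a log2 ratio of 8.31. The ratio of the raw shares, without the added RPM, was 8.98 on the log2 scale (95% exact binomial interval 8.56 to 9.43). Its full-length form of 22 nt had 99.7 RPM with Ago2, against 29.03 RPM with Ago1, so the short form led in the Ago2 library and the long one in the Ago1 library. Next among named sequences came miR-100-3p of 22 nt, the passenger of a let-7 complex hairpin, with 591 RPM with Ago2, against 3.02 RPM with Ago1 (log2 ratio 7.20). The 21 nt form of miR-184-5p followed, with 579 RPM with Ago2, against 4.27 RPM with Ago1 (6.78). Of the 10 sequences with the largest ratios, 3 were forms of an arm with no name here and 1 belonged to another such arm.

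At the other end, the 24 nt form of miR-281-2-5p had 5.15 RPM with Ago2, against 1092 RPM with Ago1 (log2 ratio -7.47). The 21 nt form of miR-210-3p had 52.8 RPM with Ago2, against 9172 RPM with Ago1 (-7.41). For miR-274-5p the 22 nt form had 4.92 RPM with Ago2, against 1005 RPM with Ago1 (-7.41). Forms of bantam-3p, which promotes growth and blocks cell death, and of miR-133-3p, a muscle miRNA, were also among the 10 lowest. All of these forms had 169 RPM or less with Ago2 apart from the 23 nt form of miR-281-2-5p, which had 321 RPM with Ago2, against 53203 RPM with Ago1 (-7.37).

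Sequences that begin with U were mostly lower with Ago2, and those that begin with C or G were more often higher than lower. Of 236 sequences that begin with U, 29 were higher and 183 lower with Ago2, with a median log2 ratio of -3.63. Of 108 that begin with C, 56 were higher and 29 lower, and the median was 1.65. Sequences that begin with G numbered 63, of which 34 were higher and 20 lower, with a median of 2.22. Among 112 that begin with A, 31 were higher and 65 lower (median -1.71). All 4 medians kept their sign under the other scales.

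Forms of an arm share their source, so the count was also taken once an arm, on its most abundant form. With U as the first base, 9 of 64 arms were higher and 52 lower (median -4.17), and with C, 16 of 29 were higher and 6 lower (median 4.59). For G the 14 arms split into 6 higher and 5 lower, and for A the 20 arms into 8 higher and 10 lower. The C-first strands with Ago1 as the larger side included the forms of miR-210-3p above and miR-281-3p of 23 nt, with 9.78 RPM with Ago2, against 674 RPM with Ago1 (-5.97). U-first strands on the Ago2 side included the 19 nt form of miR-995-3p, with 71.8 RPM with Ago2, against 0.64 RPM with Ago1 (5.47), which is also a short form. Among G-first sequences the ends were miR-14-5p of 19 nt (6.48), the passenger of a miRNA that regulates fat metabolism, and miR-993-3p of 23 nt (-6.29).

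**Figure D2:**
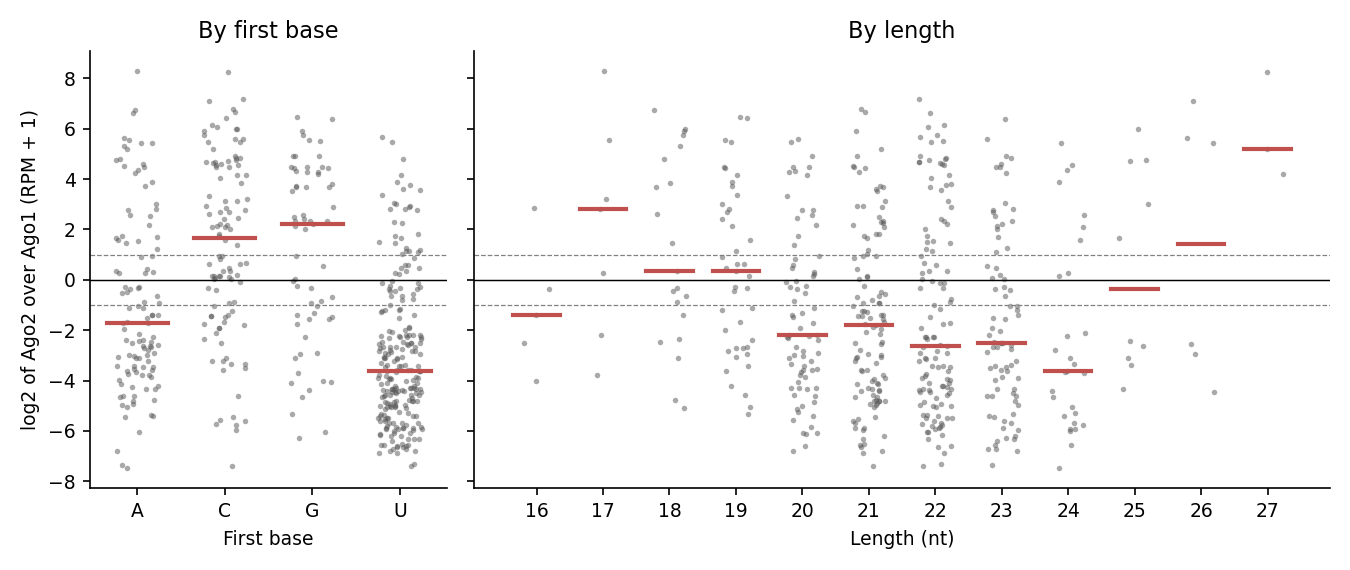
Each grey point is the log2 ratio of 1 of the 519 sequences, with Ago2 over Ago1 at 30 d on RPM plus 1, by first base on the left and by length in nt on the right. Red bars are medians and dashed lines mark 2-fold. Medians by first base were -1.71 for A, 1.65 for C, 2.22 for G and -3.63 for U, and those of 20 to 24 nt were all below 0.

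In reads, the Ago2 library held 27.1% that begin with U, against 73.9% in the Ago1 library. Those that begin with A made up 61.5% with Ago2 and 18.5% with Ago1, much of it miR-263a-5p. With that arm left out, reads with A first were 15.1% of the Ago2 library and 15.4% of the Ago1 library, and C-first reads 20.7% with Ago2 and 6.59% with Ago1. With each arm given equal weight, U-first reads averaged 51.1% with Ago2 and 54.3% with Ago1. Each arm counts the same in both libraries there, so only a change of start within an arm can move that average.

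By length, reads of 23 nt made up 9.33% of the Ago2 library and 38.6% of the Ago1 library. Those of 24 nt made up 47.8% with Ago2 and 3.23% with Ago1, and those of 19 nt 4.08% with Ago2 and 0.65% with Ago1. Without miR-263a-5p, the 24 nt share was 0.38% with Ago2 and 0.97% with Ago1. Also without it, 22 nt reads came to 63.4% of the Ago2 library and 41.6% of the Ago1 library, while the 23 nt difference stayed at 13.5% with Ago2 and 39.04% with Ago1. Reads of 25 nt took 1.73% of the Ago2 library and 0.13% of the Ago1 library.

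**Figure D3:**
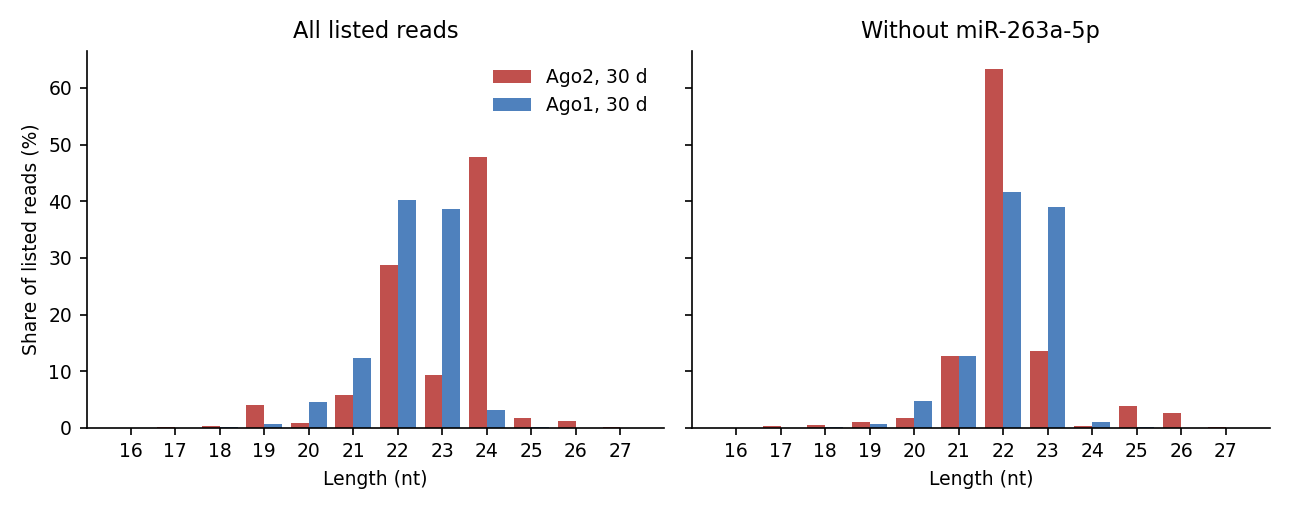
Bars give the share of listed reads in percent at each length from 16 to 27 nt, with the Ago2 library at 30 d in red to the left of the Ago1 library at 30 d in blue, for all reads and without miR-263a-5p. Without that arm the 24 nt peak of the Ago2 library, at 47.8% of all reads, is no longer there, and 22 nt reads lead in both libraries.

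Over sequences, short and long forms stood apart from the middle lengths. Of 76 sequences of 16 to 19 nt, 32 were higher and 28 lower with Ago2 (median log2 ratio 0.30). Of 424 sequences of 20 to 24 nt, 107 were higher and 261 lower (median -2.37). Only 19 sequences had 25 nt or more, of which 11 were higher and 8 lower, and 4 of the 11 belonged to an arm with no name here. That arm, with 14 members, had 16833 RPM with Ago2 and 263 RPM with Ago1 in its 25 nt form, and 11667 RPM with Ago2 and 84.3 RPM with Ago1 in its 26 nt form. Named sequences of this length on the Ago2 side were forms of miR-10-5p, miR-263a-5p, miR-33-5p and miR-962-5p. Sequences as short as 16 to 18 nt can match more than 1 place in the genome, which was not tested.

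Starts and lengths were compared in 126 arms that had 100 reads or more in each library. Start 0, called the main start, took a share at least 10 percentage points lower with Ago2 in 15 arms and at least 10 points higher in 15, together 23.8% of arms. With at least 1000 reads asked of an arm, 7 were lower and 3 higher. In miR-956-3p and miR-996-5p, start -1 had a larger mean RPM over both libraries than start 0 once lengths were summed. With that leading start taken, 17 arms were lower and 13 higher, and at 1000 reads 9 were lower and 1 higher. Mean length was at least 0.25 nt longer with Ago2 in 24 arms and at least 0.25 nt shorter in 35, together 46.8% of arms. In 45 of these 59 the 3′ end gave the larger part of the difference.

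miR-956-3p, the most abundant arm with Ago1, was split by its start. Its reads from start 0 made up 78.05% with Ago2 (95% Wilson interval 78.01 to 78.08) and 22.7% with Ago1 (22.6 to 22.7). Start -1, 1 base upstream, held 20.7% with Ago2 and 77.04% with Ago1. The 22 nt form at start 0 had 110893 RPM with Ago2, against 39315 RPM with Ago1 (log2 ratio 1.496). Its 23 nt neighbour at start -1 ends at the same base and had 22022.5 RPM with Ago2, against 100577 RPM with Ago1 (-2.19). Both of these forms begin with U. Start -2, which begins with G, was again on the Ago2 side, with 979 RPM with Ago2, against 209 RPM with Ago1 in its 23 nt form (2.22). All 6 members at start -2 were higher with Ago2, 4 of the 5 at start -1 were lower, and 3 of the 4 at start 0 were higher. Summed over all its starts the arm differed by less than 2-fold, with 156484 RPM with Ago2 and 195187 RPM with Ago1.

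miR-10-5p, from a hairpin within a Hox gene cluster, also had starts -1 and 1, summed over lengths, further towards Ago2 than start 0. Start 0 had 56989 RPM with Ago2, against 26763 RPM with Ago1 (log2 ratio 1.09). Start -1 had 1098 RPM with Ago2, against 63.1 RPM with Ago1 (4.10), and begins with U. This did not hold for each of its forms. The 23 nt form at start -1 was the lowest member of the arm (-0.38). It ends at the same base as the 22 nt form at start 0 (1.21), so the difference by start also depended on the 3′ end. Start 1 had 839 RPM with Ago2, against 90.7 RPM with Ago1 (3.20), and begins with C. Start 2, with 67.1 RPM with Ago2, against 34.5 RPM with Ago1 (0.94), was not further towards Ago2 than start 0. Starts -1 and 1 remained a small share of the arm, at 1.86% and 1.42% of its Ago2 reads, against 0.23% and 0.34% of its Ago1 reads.

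miR-210-3p changed its leading start between the libraries. The C-first start 0 held 12.1% of its reads with Ago2 and 86.8% with Ago1, and the U-first start 1 held 87.4% with Ago2 and 13.1% with Ago1. Start 0 had 58.3 RPM with Ago2, against 9590 RPM with Ago1 (log2 ratio -7.34), and start 1 had 420 RPM with Ago2, against 1444 RPM with Ago1 (-1.78). Here the U-first form was nearer to the Ago2 side and the C-first form nearer to the Ago1 side, the opposite of the order over all sequences.

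miR-31b-5p and miR-993-5p also changed their leading start. In miR-31b-5p, start -2 held 92.1% of reads with Ago2 and 7.83% with Ago1, while start 0 held 6.17% with Ago2 and 91.1% with Ago1. Its 23 nt form at start -2 had 55.3 RPM with Ago2, against 25.4 RPM with Ago1 (1.09), and the 21 nt form at start 0 had 2.32 RPM with Ago2, against 267 RPM with Ago1 (-6.33). In miR-993-5p, start -1, which begins with C, held 95.3% of reads with Ago2 and 20.4% with Ago1. The U-first start 0 of that arm held 3.54% with Ago2 and 78.6% with Ago1. These shares rest on 707 reads of miR-993-5p with Ago2 and 2008 with Ago1.

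Other arms differed in both directions. miR-959-3p kept to its C-first start 0 in the Ago2 library, at 92.8% of reads, against 22.5% in the Ago1 library, where the U-first start 1 held 69.4%. In miR-375-3p, start 1 held 15.2% with Ago2 and 0.78% with Ago1, and its 21 nt form had 35.02 RPM with Ago2, against 9.19 RPM with Ago1 (1.82). The main form of that arm, of 21 nt at start 0, had 79.2 RPM with Ago2, against 1688 RPM with Ago1 (-4.40). miR-305-3p at start -1 had 64.3 RPM with Ago2, against 387 RPM with Ago1 (-2.57), while start 0 had 13224 RPM with Ago2, against 9708 RPM with Ago1 (0.45). Both of those starts begin with C.

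miR-1-3p, the muscle miRNA, had members at 7 starts, all with the same 3′ end except 1 form of 21 nt. The 20 nt form at start 0 had 90.3 RPM with Ago2, against 228 RPM with Ago1 (log2 ratio -1.32). The form usually called miR-1, at start -2 and 22 nt, had 6.66 RPM with Ago2, against 180 RPM with Ago1 (-4.56). Start 0 thus held 84.7% of the arm's reads with Ago2 and 30.6% with Ago1. All members of the arm at the other 6 starts lay between -5.07 and -3.79. At 3 d the 20 nt form had a log2 ratio of -3.34, closer to its neighbours.

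**Figure D4:**
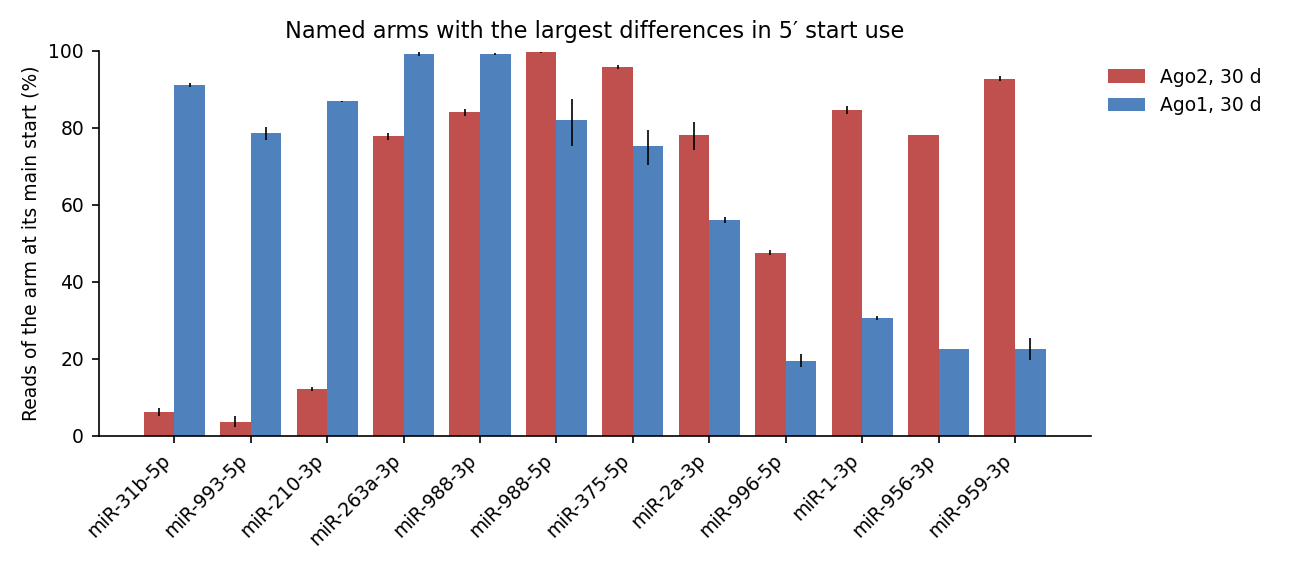
Bars give the share of an arm's reads at its main start in percent, with the Ago2 library at 30 d in red to the left of the Ago1 library at 30 d in blue, for the 12 named arms with the largest differences. Error bars are 95% Wilson intervals and cover counting error only. miR-31b-5p stands at 6.17% with Ago2 and 91.1% with Ago1, and miR-959-3p at 92.8% with Ago2 and 22.5% with Ago1.

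Over all arms, 95 other starts reached a mean of 10 RPM, and each was set against the main start of its own arm. Relative to it, 26 were at least 2-fold nearer to Ago2 (27.4%) and 19 at least 2-fold nearer to Ago1 (20%), with a median difference of 0.22 on the log2 scale. Where the main start begins with U and the other start with another base, 12 of 37 were nearer to Ago2 and 2 nearer to Ago1 (median 0.55). An example is miR-14-3p at start 1, which begins with C, at 82.5 RPM with Ago2, against 30.7 RPM with Ago1 (1.39), where its U-first start 0 had 742 RPM with Ago2, against 25619 RPM with Ago1 (-5.11). In the opposite case, a main start with another base and an other start with U, 5 of 14 were nearer to Ago2 and 4 nearer to Ago1. These starts share arms and libraries, so the counts describe them only. The added RPM also pulls rare starts towards 0, and so towards Ago2 where the main start lies far on the Ago1 side. Start 1 of bantam-3p, with 0.20 RPM with Ago2 and 26.9 RPM with Ago1, is among the 12 (-4.53, main start -6.50). Counts without the added RPM were not taken, so part of the 12 can come from it.

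Length ladders were read for forms that begin at start 0, each set against the most abundant form of its arm. Of 266 such forms, 95 were at least 2-fold nearer to Ago2 than the main form (35.7%) and 68 at least 2-fold nearer to Ago1 (25.6%). Among 54 forms shorter by 3 nt or more, 26 were nearer to Ago2 and 11 nearer to Ago1 (median difference 0.81 on the log2 scale). Among 43 forms longer by 2 nt or more, 22 were nearer to Ago2 and 12 nearer to Ago1 (median 1.05). For forms 1 nt shorter the counts were 21 and 20 of 75, and for those 1 nt longer they were 12 and 16 of 50. At both ends of the ladders, then, more forms were counted nearer to Ago2 than to Ago1 on ratios with the added RPM. That addition pulls rare forms towards 0, which is towards Ago2 where the main form lies far on the Ago1 side. The 21 nt form of miR-2b-3p, with 0.17 RPM with Ago2 and 38.3 RPM with Ago1, was so counted (-5.07, main form -6.64). Counts without the added RPM were not taken, so part of the difference can come from it.

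miR-263a-5p, which protects developing sensory bristles from cell death, had a ladder that crossed 0 more than once. The 24 nt form had 476500 RPM with Ago2, against 23016 RPM with Ago1 (log2 ratio 4.37), and the 23 nt form 31068 RPM with Ago2, against 9517 RPM with Ago1 (1.71). Forms of 22, 21 and 20 nt were on the Ago1 side, at -1.72, -1.94 and -1.11. The 21 nt form, for one, had 243 RPM with Ago2, against 933 RPM with Ago1. Then the 19 nt form was again far on the Ago2 side, with 36000.4 RPM with Ago2, against 758 RPM with Ago1 (5.57), and it was the 5th most abundant sequence of that library. Forms cut from the 5′ end but with the full 3′ end stayed on the Ago2 side too, with 1531 RPM with Ago2, against 80.7 RPM with Ago1 for start 1 (4.23) and 1165 RPM with Ago2, against 21.8 RPM with Ago1 for start 2 (5.68). Of its 21 members, 17 were higher and 3 lower with Ago2.

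Within the let-7 complex, whose miRNAs time development, miR-125-5p was shorter by 0.95 nt on average with Ago2, at 21.3 nt, against 22.3 nt with Ago1. Its 21 nt form had 4891 RPM with Ago2, against 395 RPM with Ago1 (log2 ratio 3.63). The 22 nt form had 2573 RPM with Ago2, against 934 RPM with Ago1 (1.46). Forms of 23 to 26 nt were on the Ago1 side, at -1.52 to -3.11, such as the 24 nt form with 38.5 RPM with Ago2, against 340 RPM with Ago1. miR-100-5p had 287 RPM with Ago2, against 61.9 RPM with Ago1 in its 20 nt form (2.20), while its 22 nt form was nearly even, at 59.6 RPM with Ago2 and 75.2 RPM with Ago1. let-7-5p itself was on the Ago1 side at each of its 6 lengths from start 0, by -4.32 at 20 nt and by -0.66 at 18 nt. That 18 nt form, with 82.4 RPM with Ago2 and 130 RPM with Ago1, did not reach 2-fold.

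miR-252-5p, which begins with C, ran in steps. From 19 to 23 nt its log2 ratios were 4.16, 3.35, 2.10, 0.93 and 0.20, and at 24 nt the ratio was 2.08. The 19 nt form had 123 RPM with Ago2, against 5.97 RPM with Ago1, and the main form of 22 nt had 6582 RPM with Ago2, against 3446 RPM with Ago1. Its U-first start 1 was on the Ago1 side, and the 22 nt form there had 3.18 RPM with Ago2, against 92.4 RPM with Ago1 (-4.48).

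miR-305-3p ran the same way. The main form of 22 nt was nearly even, with 4731 RPM with Ago2, against 3738 RPM with Ago1 (0.34). Its 20 nt form had 585 RPM with Ago2, against 105 RPM with Ago1 (2.47), and its 18 nt form had 356 RPM with Ago2, against 4.65 RPM with Ago1 (5.98). Only forms of 20 nt or less passed 2-fold on the Ago2 side. Its partner miR-305-5p, a guide with a role in gut stem cells, was lowest at 22 nt (-5.37) and even at 24 nt (0.25).

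miR-277-3p, which controls the breakdown of branched-chain amino acids, was on the Ago1 side at every length from 20 to 23 nt, between -3.94 and -2.52. The main form of 22 nt had 6481 RPM with Ago2, against 68837 RPM with Ago1 (-3.41). The 19 nt form alone was on the Ago2 side, with 905 RPM with Ago2, against 128 RPM with Ago1 (2.82). At 3 d the 20 nt form had a log2 ratio of 0.04, against -3.24 at 30 d, the largest fall between the ages among members measured at both.

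miR-34-5p, a miRNA known to guard the ageing fly brain and a known target of trimming by Nibbler, was shorter by 2.20 nt on average with Ago2, at 18.7 nt, against 20.9 nt with Ago1. The 18 nt form was nearly even, with 446 RPM with Ago2, against 605 RPM with Ago1 (log2 ratio -0.44). The main form of 21 nt had 29.8 RPM with Ago2, against 3041 RPM with Ago1 (-6.63), and the 24 nt form 12.2 RPM with Ago2, against 160 RPM with Ago1 (-3.60). Thus the 18 nt form made up most of the arm's 550 RPM with Ago2 and little of its 4912 RPM with Ago1.

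bantam-3p stayed on the Ago1 side at all 7 lengths, between -6.88 and -3.41. Its 23 nt form had 466 RPM with Ago2, against 37378 RPM with Ago1 (-6.32). The nearest to even was again a short form, the 19 nt form with 9.09 RPM with Ago2, against 107 RPM with Ago1.

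**Figure D5:**
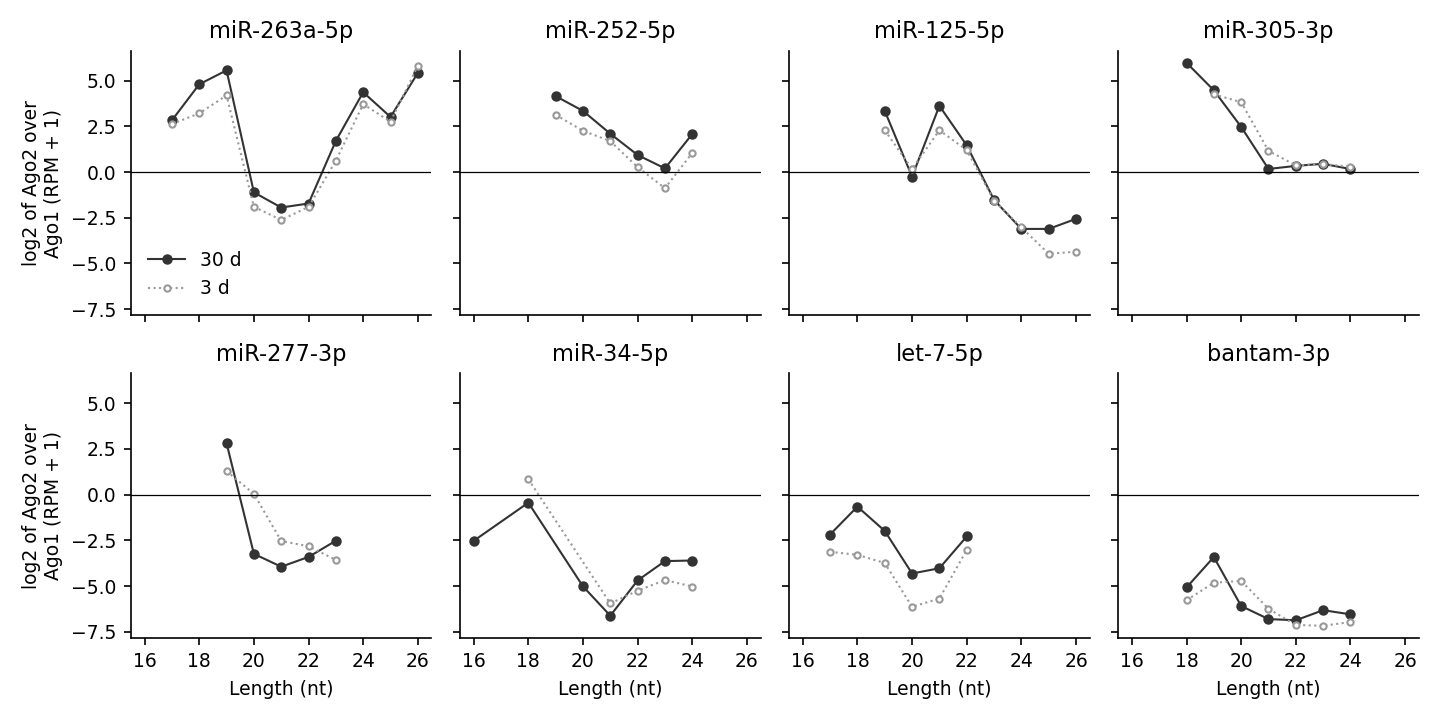
Each panel plots, for forms of an arm that begin at start 0, the log2 ratio of Ago2 over Ago1 on RPM plus 1 against the length in nt. Filled points joined by solid lines are the 30 d libraries and open points joined by dotted lines are the 3 d libraries, for forms with a mean of at least 10 RPM there. miR-252-5p and miR-305-3p fall with length to 21 to 23 nt, and the 19 nt forms of miR-263a-5p and miR-277-3p lie above 0 at 30 d while the 20 to 22 nt forms of both lie below 0 at 30 d.

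Arms that were longer with Ago2 were fewer. miR-1010-3p, from a spliced intron that folds as a hairpin, was 1.53 nt longer, at 23.4 nt with Ago2 and 21.8 nt with Ago1. Its 24 nt form had 40.02 RPM with Ago2, against 192 RPM with Ago1 (-2.23), and its 21 nt form 6.11 RPM with Ago2, against 529 RPM with Ago1 (-6.22). miR-263b-5p was 1.46 nt longer, at 21.9 nt with Ago2 and 20.4 nt with Ago1, with 248 RPM with Ago2, against 9.34 RPM with Ago1 in its 23 nt form (4.59). In miR-10-5p, forms of 25, 26 and 27 nt were listed almost only with Ago2. The 26 nt form had 105 RPM with Ago2, against 1.10 RPM with Ago1 (5.65). The 27 nt form had 36.7 RPM with Ago2 and a single read with Ago1, and the raw log2 ratio of 9.92 had an interval of 7.44 to 15.23.

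Of 93 arms with at least 2 members, 18 had only higher and 41 only lower members, and 11 arms held both higher and lower ones. These 11 were miR-14-3p, miR-305-3p, miR-252-5p, miR-210-3p, miR-263a-5p, miR-956-3p, miR-31b-5p, miR-277-3p, miR-125-5p, miR-375-3p and miR-33-5p. The widest range was that of miR-14-3p, at 9.79 on the log2 scale. Its 20 nt form at start 0 had 640 RPM with Ago2, against 22703 RPM with Ago1 (-5.15), and its 22 nt form at start 1 had 38.1 RPM with Ago2, against 0.57 RPM with Ago1 (4.64). In miR-33-5p the 27 nt form was higher, with 19.97 RPM with Ago2, against 0.15 RPM with Ago1 (4.19). The median range over the 93 arms was 2.74, so forms of an arm commonly differed by several fold in their ratio.

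Strand choice was read within 23 hairpins with both strands named, as the share of the hairpin's reads that came from the passenger. The passenger was set from background knowledge of the hairpin, not by counting these reads. The lists and names were chosen with earlier results of these data known, so the choice was not independent of them. miR-305-3p, named a passenger in this way, held 93.0% of its hairpin's reads even with Ago1. The share was higher with Ago2 in 21 of the 23, with a median of 61.4% with Ago2 and 4.55% with Ago1. With the strand of fewer reads over both libraries taken as passenger instead, the share was higher in 15 of 23 and the Ago2 median was 16.8%. Passengers by name held most reads in 13 hairpins with Ago2 and in 2 with Ago1. In 15 of the hairpins the leading passenger form with Ago2 begins with C and in 1 with U. In 14 the leading guide form with Ago1 begins with U. Leading forms kept their first base between the libraries apart from miR-993-5p (C with Ago2, U with Ago1) and miR-210-3p (U with Ago2, C with Ago1). These counts therefore describe the strands and not a difference between the libraries.

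Reads of the bantam hairpin came to 91.7% from the passenger with Ago2 (95% Wilson interval 91.6 to 91.8), against 0.50% with Ago1. Its 23 nt passenger form had 5856 RPM with Ago2, against 204 RPM with Ago1 (log2 ratio 4.84). miR-275 followed with 93.6% with Ago2, against 2.53% with Ago1, and its passenger changed length as well. The 22 nt form had 1509 RPM with Ago2, against 21.5 RPM with Ago1 (6.07), while the 23 nt form had 833 RPM with Ago2, against 189 RPM with Ago1 (2.14). miR-981 had the same feature, with a passenger share of 97.8% with Ago2, against 4.55% with Ago1. Its 21 nt passenger form had 82.2 RPM with Ago2, against 0.38 RPM with Ago1 (5.92), but the 22 nt form was nearly even, with 14.3 RPM with Ago2 and 11.1 RPM with Ago1. The largest share with Ago2 was that of miR-278, a regulator of energy balance, with 99.8%, against 46.3% with Ago1.

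Exceptions were the hairpins of miR-10 and miR-263a. The miR-10 passenger held 3.89% with Ago2 and 30.5% with Ago1, and all 6 of its measured forms were lower with Ago2, between -2.90 and -1.42. Those of 22 and 23 nt had 825 and 1458 RPM with Ago2, against 3106 and 8395 RPM with Ago1. In miR-263a the passenger was rare in both, at 0.04% with Ago2 and 0.10% with Ago1. The hairpin of miR-34 hardly differed in strand use, with 6.40% with Ago2 and 6.29% with Ago1, although its guide differed in length.

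Named lists of arms, chosen with earlier results of these data known, give the same order by sequence. Passenger strands had 92 members in 26 arms, of which 54 were higher and 22 lower (median 2.27). Their guides had 190 members in 27 arms, of which 34 were higher and 124 lower (median -2.53), beside a median of -1.94 over all 519 sequences. The K box seed family, miR-2 and its relatives, had 22 members, with 0 higher and 19 lower (median -4.35). The 3 others were forms of miR-11-3p, of which the main form of 22 nt had 4198 RPM with Ago2, against 7636 RPM with Ago1 (-0.86).

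Tissue lists are given beside the 28.9% higher and 57.2% lower over all 519 sequences, and the testis, let-7 complex and mirtron counts lie near those shares. Both muscle miRNAs, with 10 members, had 0 higher and 10 lower (median -4.60). Nervous system arms, here 5 of 6 names, had 3 higher and 14 lower of 21 (median -2.66). The highest of them was miR-124-5p of 23 nt, with 232 RPM with Ago2, against 1.81 RPM with Ago1 (6.37). No arm named miR-124-3p, the other strand of that hairpin, held a member. Early embryo arms, here 3 of 9 names, had 9 lower of 9 (median -5.59). These were miR-311-3p with 4 members, miR-312-3p with 3 members and miR-310-3p with 2 members. The other names on that list held no member, so its count describes these arms only and not early embryo miRNAs at large. Testis cluster arms had 3 higher and 5 lower of 10 (median -2.19), among them miR-959-3p of 21 nt with 167 RPM with Ago2, against 3.63 RPM with Ago1 (5.18), and miR-982-5p of 23 nt with 1.19 RPM with Ago2, against 229 RPM with Ago1 (-6.72). Fat body, gut and insulin arms had 3 higher and 53 lower of 68 (median -2.66). Sensory organ arms had 19 higher and 13 lower of 34 (median 1.93), and all of the 19 were forms of miR-263a-5p or miR-263b-5p. The let-7 complex had 4 higher and 10 lower of 19 (median -1.52), and mirtrons, cut from introns, had 2 higher and 5 lower of 8 (median -1.72). Flies were whole, so the tissue that the reads of a list came from was not measured. Both libraries came from flies of the same genotype and age, so the ratios do not measure the number of cells of a type. How much of either protein a tissue holds cannot be told apart from which sequences each protein binds there.

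The 3 d libraries, made from other flies, gave a second pair for each sequence. Of the members, 455 also had a mean of at least 10 RPM at 3 d. Of their 121 higher ones at 30 d, 111 were at least 2-fold higher at 3 d, and of 271 lower ones, 263 were at least 2-fold lower. No sequence passed 2-fold in opposite directions at the 2 ages. Across these sequences, which are not independent replicates, Pearson's r of the log2 ratios was 0.97. The forms of 16 to 19 nt had a larger log2 ratio at 30 d in 37 of 49 cases, with a median of 0.27 at 30 d and -0.80 at 3 d. For 20 to 24 nt it was 244 of 390, with medians of -2.52 at 30 d and -2.87 at 3 d. Age, library and depth cannot be told apart in this comparison.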

How the data were processed

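Small RNA libraries of Ago2 and Ago1 pull-downs from whole male flies were analysed, 1 for each protein at 30 d and 3 d. The authors deposited for each a list of sequences with raw read counts, not normalized. CASAVA 1.8.2, Bowtie (no version) and the build dm3 come from the submitters' processing notes. The sources used here do not give trimming, alignment settings or the filter behind the lists. No coordinates are printed, since the reference held is of another build. A sequence listed up to 5 times was counted once. RPM is per listed reads. Sequences joined an arm when 14 nt or more overlapped exactly and their ends lay within 8 nt (5′) and 10 nt (3′) of its head. Names are recalled mature sequences, 6 of them given by pairing. All 100 named arms had an annotated mature strand in the Ensembl annotation, within the hairpin's RefSeq bounds, and 91 had a member of its length; the letters were not compared.

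Log2 ratios used a pseudocount of 1 RPM. Intervals are 95% (exact conditional binomial for ratios of raw counts, Wilson for shares) and leave out all error but counting, as PCR copies were not removed. They are taken without the pseudocount, so a printed log2 ratio can lie outside its interval. A count of 0 allows up to 3 reads, which is 0.0868 RPM with Ago2 and 0.113 RPM with Ago1. Sequences named were the 10 largest and smallest ratios, the 10 most abundant per library, the ends of each first base and length, list members, and the arms with the largest differences in start, length, range or strand. Not all were spelled out. The members, lists and names were chosen with earlier results of these data known. Grouping and fold calls were tested on simulated data for Ago2 against Ago1 at 30 d. All 100 raised and all 100 lowered 4-fold among 506 sequences were recovered. The simulation held counting error only, used the known shift of scale and scored 4-fold changes at 2-fold, so this recovery was built in. It checks the code and says nothing of the spread between flies or preparations. Tools were Python 3.11.15, pandas 2.3.3, scipy 1.17.1, statsmodels 0.14.6, and for alternative scales edgeR 4.0.16 (TMM) and DESeq2 1.42.0 (size factors).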

Additional observations from a re-analysis of the deposited data

How the results depend on the processing

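No paired analysis was possible because the labels carry no replicate numbers and the 30 d comparison, with 1 library for each protein, comes from no test. The counts of 150 higher and 297 lower sequences stayed within 1.5 times under TMM factors (172 and 269), the median of ratios (171 and 271), totals without the 5 most abundant arms (179 and 265), pseudocounts of 0.5 and 5 RPM, summed repeated lines, a 4-fold threshold and in the 3 d libraries. They were 383 and 643 at a minimum mean of 1 RPM, 55 and 131 at 100 RPM, and 445 and 741 with no minimum, where the number of sequences compared differs. The difference in U-first reads, -46.8 points, became -16.9 without miR-263a-5p, -15.2 over distinct sequences of at least 10 RPM in the library (chosen after seeing the data, as all members were listed in both libraries) and -3.16 as a mean over arms. For C-first reads, 2.99 points became 14.1, 11.2 and 1.46, and for 23 nt reads -29.2 became -25.6, -1.93 and -0.97. The 24 nt difference of 44.6 points reversed to -0.58 and -1.47 under the first 2 of these settings and was 0.98 over arms. The mean over arms weighs each arm the same in both libraries, so it leaves out differences in abundance between arms. Arms whose share of start 0 differed, 15 higher and 15 lower, numbered 3 higher and 7 lower at 1000 reads. With the leading start by mean RPM in place of start 0, chosen after seeing the data, they were 13 higher and 17 lower, and 1 higher and 9 lower at 1000 reads. Longer and shorter arms numbered 12 and 18 at 1000 reads and 11 and 21 at 0.5 nt. Arms with members in both directions numbered 6 at 100 RPM and 33 at 1 RPM. With the strand of fewer reads taken as passenger, the Ago2 median was 16.8% and 15 of 23 hairpins were higher. Depth limits only forms with a few reads in a library, such as miR-10-5p of 27 nt.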
